A study of Mus musculus with 6 samples.

Results

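The genes described here are 10 regulators and transporters of the intercalated cell: the transcription factor gene Foxi1, the anion exchanger genes Slc4a9, Slc4a1 and Slc26a4, the proton pump subunit genes Atp6v1b1, Atp6v1c2, Atp6v1g3, Atp6v0a4 and Atp6v0d2, and the ammonia channel gene Rhcg. They were chosen by name, with earlier results of these data known, and all 10 are among the 17189 genes of the deposited table. RNA was measured in ureteric bud lineage cells, the epithelium that forms the collecting ducts of the kidney, sorted by fluorescence from mouse embryos at stage E16.5. The 3 control libraries came from embryos with the Hoxb7Cre-GFP transgene and the genotype Ash2l F/+, with no treatment. The 3 conditional knockout (cKO) libraries came from embryos with the same transgene and the genotype Ash2l F/F, also untreated. Controls thus carried Cre and 1 floxed allele of Ash2l, which encodes a core subunit of histone H3 lysine 4 methyltransferases. Cre was driven by Hoxb7, a gene of the ureteric epithelium. The labels do not say whether a library is 1 embryo or a pool.

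Intercalated cells are the acid-base cells of the collecting duct, set among the principal cells that handle water and sodium. FOXI1 is the transcription factor that directs their differentiation. They move protons with a vacuolar H+-ATPase (V-ATPase), a rotary pump with a cytosolic V1 part that splits ATP and a membrane V0 part that carries the protons. Most subunits of this pump are made in all cells for lysosomes and endosomes, while a few subunits exist in isoforms of restricted expression that serve the plasma membrane of acid-secreting cells.

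Library totals ranged from 9620235 to 10538314 counts. The targeted gene Ash2l was counted 1933, 1853 and 1624 times in control replicates 1, 2 and 3, against 451, 292 and 214 times in the cKO replicates. One library, cKO replicate 3, listed at 0 a total of 1453 of 11738 genes (12.4%) that exceeded 10 counts everywhere else, and no other library so listed over 3 genes. Results are therefore given with 6 libraries and without cKO replicate 3. Y-linked reads differed too: Ddx3y had between 392 and 1044 counts in controls and 0 in every cKO library, so genotype and Y-linked reads cannot be told apart. In both groups the sorted cells carried ureteric epithelial RNA. The summed level of 15 ureteric markers was 10929.9 to 12259 CPM (counts scaled to the effective library size) in controls and 6580 to 7570 CPM in cKO. No marker of that list was at 0 in cKO replicate 3. With 6 libraries 5 of the 15 fell and none rose (edgeR, adjusted p under 0.05), where 3.59% of all tested genes fell and 3.52% rose. Without cKO replicate 3, 8 fell, where 14.9% of all tested genes fell. In 10 of the 15 every cKO library lay below every control, a pattern of 20.7% of all tested genes. The markers with the smallest p, Wnt11 and Hoxb7, were among the 5 that fell (log2 fold changes -1.67 and -1.30, edgeR adjusted p = 0.00341 and 0.00784).

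Most intercalated cell genes were low or missing in cKO cells. In 7 of the 10 genes every cKO library lay below every control library, a pattern found in 20.7% of the 13047 genes that passed the low-count filter. In none was every cKO library above every control, a pattern of 16.7% of those genes. The 3 genes with overlapping groups were Slc4a1, Slc26a4 and Rhcg. Every cKO library also lay below every control for 7 of 10 principal cell genes and 10 of 15 ureteric markers. With 6 libraries Foxi1 and Slc4a9 fell and no member rose (edgeR, adjusted p under 0.05), where 3.59% of all tested genes fell and 3.52% rose. At an unadjusted p under 0.05, 5 members were lower and 0 higher, against 11.1% and 11.9% of all tested genes. DESeq2 called 4 members lower and 0 higher, against 7.69% and 8.05% of the 13804 genes to which it gave an adjusted p. Slc4a1 and Slc26a4 did not pass the filter and were not tested. Without cKO replicate 3, Foxi1, Slc4a9, Atp6v1b1, Atp6v1g3, Atp6v0a4 and Atp6v0d2 fell, 6 of 10 tested, where 14.9% of 13660 tested genes fell. Of the 8 members that passed the filter with 6 libraries, only Atp6v1c2 and Rhcg reached it in every cKO library. The other 6 reached it in every control library, which was enough to pass. Of these, Slc4a9 and Atp6v1g3 reached it in no cKO library and so had to be lower in cKO to some degree. Foxi1, Atp6v1b1 and Atp6v0a4 reached it in 1 cKO library and Atp6v0d2 in 2. In such bulk samples fewer intercalated cells and less RNA per intercalated cell cannot be told apart.

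**Figure D1:**
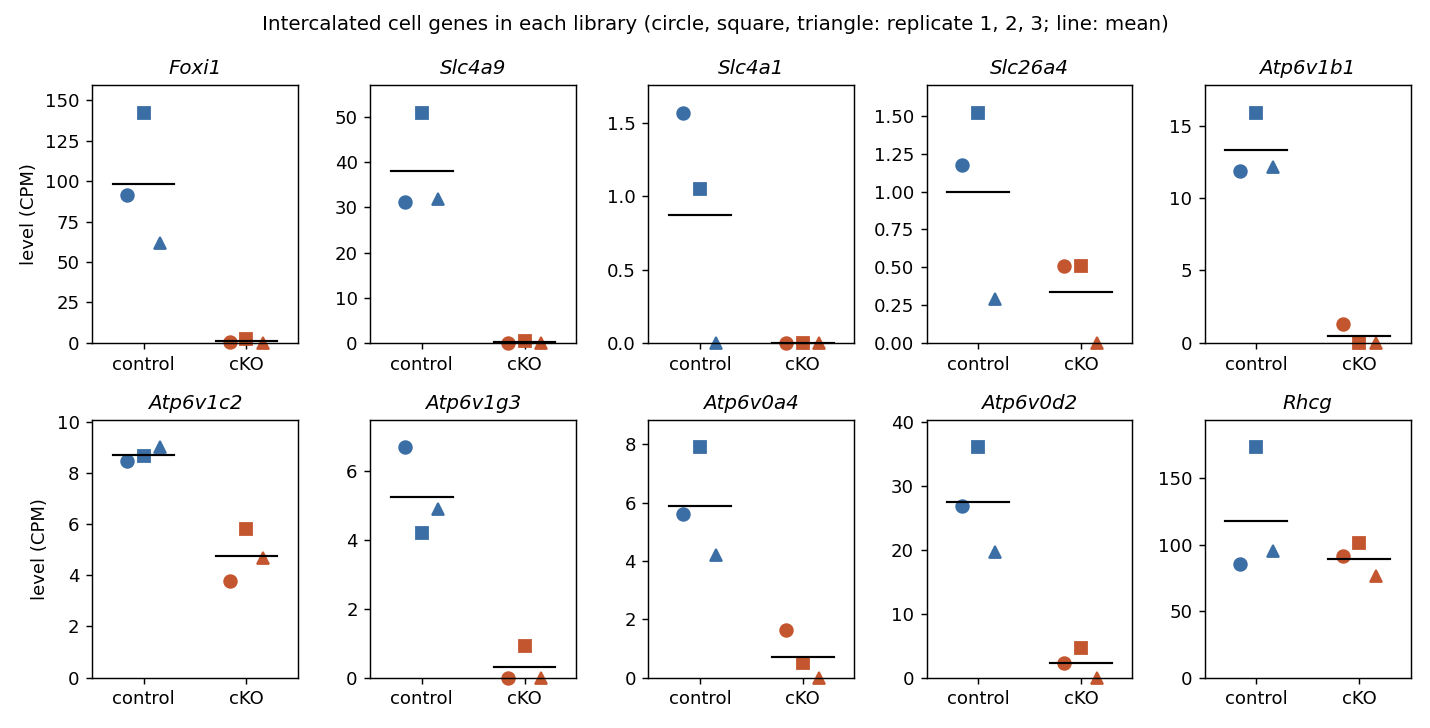
Level of each of the 10 intercalated cell genes in CPM (vertical axis, linear from 0, with its own range per gene) in the 3 control and 3 cKO libraries. Symbols mark replicates and lines the group means. Foxi1 lies between 61.8 and 142 CPM in controls and at or below 2.54 CPM in cKO, while the groups overlap for Rhcg, Slc26a4 and Slc4a1.

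Foxi1 (Entrez Gene 14233), the regulator, gave 931, 1497 and 632 counts across control replicates 1, 2 and 3. Across cKO replicates 1, 2 and 3 it gave 4, 25 and 0 counts. The groups were far apart, and the highest cKO library, replicate 2, was at 2.54 CPM against 61.8 CPM in the lowest control. Foxi1 fell by 6.63 on the log2 scale (SE 1.02, edgeR adjusted p = 0.0159), or by 6.06 without cKO replicate 3 (SE 0.752, edgeR adjusted p = 0.00469). With 6 libraries the call was lost without any 1 control or without cKO replicate 1, with an edgeR adjusted p of 0.057 to 0.099. Without cKO replicate 2 the value was -8.85 (edgeR adjusted p = 0.0297), and with limma-voom and library weights Foxi1 was not called (adjusted p = 0.0607). The deposited annotation lists Foxi1 in the forkhead family.

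Slc4a9 encodes AE4, an exchanger of the basolateral membrane of bicarbonate-secreting intercalated cells, and is a known target of FOXI1. Slc4a9 (Entrez Gene 240215) gave 318, 536 and 325 counts across the controls, against 0, 4 and 0 across the cKO libraries. It thus went from 38.0 ± 11.3 to 0.135 ± 0.235 CPM (SD, n = 3 each), and reads were left in 1 cKO library. It fell by 8.01 on the log2 scale (SE 1.07, edgeR adjusted p = 0.0112). Without cKO replicate 3 it was -7.47 (SE 0.558, edgeR adjusted p = 1.45e-06). Without cKO replicate 2, the cKO library that held its 4 reads, the fitted value was -11.59 (edgeR adjusted p = 0.0297), so the size of the fold rests on that library. Leaving out any 1 control raised the edgeR adjusted p to between 0.0654 and 0.0783.

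The other exchangers were scarcely detected even in controls. Slc4a1 encodes AE1, the exchanger of acid-secreting intercalated cells and of red blood cells, where it is known as band 3. Slc4a1 gave 16, 11 and 0 counts across the controls, against 0 in every cKO library. Against a floor of 3 counts over the cKO group, its control level was at least 8.63-fold higher, and control replicate 3 was itself at 0. Over 12 erythroid genes, which mark red cells, the summed level was 1.77, 1.9 and 405 CPM in control replicates 1, 2 and 3 and 5.42, 39.6 and 0 CPM in the cKO replicates. The alpha-globin gene Hba-a1 (edgeR adjusted p = 0.487) and the haem synthesis gene Alas2 (edgeR adjusted p = 0.669) were not called. The part of red cells in the Slc4a1 reads was not tested. Slc26a4 encodes pendrin, the apical chloride-bicarbonate exchanger of bicarbonate-secreting cells. Slc26a4 gave 12, 16 and 3 counts across the controls, against 5, 5 and 0 across the cKO libraries, so the groups overlapped. Without cKO replicate 3, where it passed the filter, Slc26a4 was not called (log2 fold change -0.96, SE 1.08, edgeR adjusted p = 0.546).

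Of the restricted V1 subunits, none was called with 6 libraries and 2 of 3 fell without cKO replicate 3. Atp6v1b1 encodes B1, the form of the ATP-binding regulatory B subunit found in intercalated cells and the inner ear. Atp6v1b1 gave 121, 167 and 124 counts across the controls, against 13, 0 and 0 across the cKO libraries replicates 1, 2 and 3. Every cKO library was below every control, and 2 cKO libraries had no reads. With 6 libraries Atp6v1b1 was not called (log2 fold change -4.87, SE 1.58, edgeR adjusted p = 0.123), and without cKO replicate 3 it fell (-4.31, SE 0.734, edgeR adjusted p = 0.00116). Without cKO replicate 1, the cKO library with its 13 counts, Atp6v1b1 was also called, at a fitted -10.08 (edgeR adjusted p = 0.0309), so the size of the fold rests on that library. Atp6v1g3 encodes the kidney form of the stalk subunit G. It gave 68, 44 and 50 counts across the controls, against 0, 9 and 0 across the cKO libraries. Atp6v1g3 was not called with 6 libraries (-4.05, SE 1.63, edgeR adjusted p = 0.198) and fell without cKO replicate 3 (-3.49, SE 0.916, edgeR adjusted p = 0.0115). Its fitted value was -8.74 without cKO replicate 2, the cKO library with its 9 counts (edgeR adjusted p = 0.0922). Atp6v1c2, a restricted form of subunit C, gave 86, 91 and 92 counts across the controls, against 37, 57 and 47 across the cKO libraries. Among the pump members it kept the most reads in cKO: the groups did not overlap, yet the difference of -0.87 (SE 0.531) was not called (edgeR adjusted p = 0.394, and 0.105 without cKO replicate 3).

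Both restricted V0 subunits were likewise lower in every cKO library than in every control. Atp6v0a4 encodes a4, the membrane subunit which, like B1, is mutated in inherited distal renal tubular acidosis. It gave 57, 83 and 43 counts across the controls, against 16, 5 and 0 across the cKO libraries. Atp6v0a4 was not called with 6 libraries (log2 fold change -3.03, SE 1.35, edgeR adjusted p = 0.245) and fell without cKO replicate 3 (-2.46, SE 0.647, edgeR adjusted p = 0.0118). Atp6v0d2, which encodes a form of subunit d shared with osteoclasts, gave 274, 379 and 202 counts across the controls, against 23, 45 and 0 across the cKO libraries. Its highest cKO library was at 4.57 CPM and its lowest control at 19.7 CPM. Atp6v0d2 was not called with 6 libraries (-3.57, SE 1.23, edgeR adjusted p = 0.142) and fell without cKO replicate 3 (-3.00, SE 0.367, edgeR adjusted p = 5.74e-05). The summed level of 8 markers of macrophages and osteoclast-like cells was 45.2 to 82.1 CPM in controls and 42.2 to 104.5 CPM in cKO. None of 6 tested was called by edgeR or DESeq2, 0 of them had an unadjusted p under 0.05, and the smallest edgeR adjusted p were those of Fcer1g (0.272) and C1qb (0.449). The part of such cells in the Atp6v0d2 values was not tested.

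Rhcg, the tested member with the fold change nearest to 0, encodes an ammonia channel of intercalated cells that principal cells and other distal segments also make. Rhcg gave 870, 1818 and 973 counts across the controls, against 894, 994 and 764 across the cKO libraries. Except for the high control replicate 2, the libraries of both groups covered the same range. It was not called, with a log2 fold change of -0.40 (SE 0.285, edgeR adjusted p = 0.478) and of -0.30 without cKO replicate 3 (SE 0.321, edgeR adjusted p = 0.542).

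The zeros of cKO replicate 3 bear on these values. In that library 8 of the 10 members were listed at 0, all but Atp6v1c2 and Rhcg. Zeros were common there among all genes at a like level, taken as a mean count in cKO replicates 1 and 2 within 1.5 times that of the member. At the level of Foxi1 (14.5 counts), 74.2% of 1175 genes were at 0 in cKO replicate 3, and at the level of Atp6v0d2 (34 counts) 57.9% of 1301 genes were. For Atp6v1b1, Atp6v1g3, Atp6v0a4, Slc26a4 and Slc4a9 this share was between 77.9% and 89.3%. Atp6v1c2 kept 47 counts at a level where 49.2% of genes were at 0.

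Levels of different genes were compared as FPKM, which divides by gene length. In controls Rhcg was highest at 62.2 ± 26.1 FPKM (SD, n = 3), followed by Foxi1 at 41.4 ± 17.6 FPKM. Their ranges overlapped, although Rhcg was above Foxi1 in each control library. Slc4a9 was at 10.6 ± 3.28 FPKM, below Foxi1 in every control. Atp6v0d2 at 6.69 ± 2.06 FPKM overlapped with Slc4a9 above it and with Atp6v1b1, at 6.65 ± 1.2 FPKM, below it. Atp6v1g3 (2.74 ± 0.66 FPKM), Atp6v1c2 (2.18 ± 0.0595 FPKM) and Atp6v0a4 (1.77 ± 0.582 FPKM) overlapped with one another. Every control value of Atp6v1g3 lay below those of Atp6v1b1, and every control value of Atp6v0a4 lay above those of Slc26a4. Slc26a4 (0.246 ± 0.158 FPKM) and Slc4a1 (0.19 ± 0.173 FPKM) came last and overlapped with each other. In cKO the order was led by Rhcg at 48.4 ± 6.8 FPKM and then Atp6v1c2 at 1.23 ± 0.276 FPKM, and all other members were at or below 0.574 FPKM on average.

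Members also varied among the controls. Control replicate 2 was the highest control for 7 of the 10 members, Foxi1, Slc4a9, Slc26a4, Atp6v1b1, Atp6v0a4, Atp6v0d2 and Rhcg, and for 31.4% of all tested genes. Atp6v1c2 differed least, from 8.44 to 8.99 CPM. Principal cell genes were high in the same library: over 10 of them the summed level was 1310 CPM in control replicate 2, against 854 and 927 CPM in control replicates 1 and 3. In cKO that sum was 462 to 578 CPM, so the summed principal cell level was lower as well. Of these 10 genes 3 fell with 6 libraries, where 3.59% of all tested genes fell. Without cKO replicate 3, 6 fell, where 14.9% of all tested genes fell. Among the 3 were Scnn1g, a sodium channel subunit (log2 fold change -1.45, SE 0.221), and Hsd11b2 (-1.71, SE 0.28). In 7 of the 10 every cKO library lay below every control, a pattern of 20.7% of all tested genes. With 6 libraries the groups overlapped for the other 3, Avpr2 (0.06, SE 0.322), Elf5 (-0.49, SE 0.718) and Scnn1b (-0.53, SE 0.228). The calls of Scnn1g and Hsd11b2 were each lost without at least 1 library (highest edgeR adjusted p 0.0692 and 0.0901). The summed level of 9 markers of nephron epithelium and podocytes was higher instead, at 8.31 to 13 CPM in controls and 28.9 to 38.3 CPM in cKO. Only 2 of the 9 were higher in every cKO library than in every control, a pattern of 16.7% of all tested genes. The other 7 overlapped between groups, and 7 of the 9 were at 0 in cKO replicate 3. Of 3 tested, edgeR called 0 with 6 libraries. At an unadjusted p under 0.05, 2 of the 3 were higher, against 11.9% of all tested genes. Of the 9 in the list, DESeq2 called 2 higher, against 8.05% of the genes to which it gave an adjusted p. The proximal tubule receptor gene Lrp2 lay above every control in each cKO library (2.42, SE 0.637, edgeR adjusted p = 0.0726). So did Slc34a1, a proximal tubule phosphate transporter gene (1.66, SE 0.489, edgeR adjusted p = 0.0977). The part of these shifts in the intercalated cell values was not tested.

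The ubiquitous pump subunits served as a contrast. Of 16, 1 fell and none rose with 6 libraries in edgeR, where 3.59% of all tested genes fell and 3.52% rose. At an unadjusted p under 0.05, 7 were higher and 1 lower, against 11.9% and 11.1% of all tested genes. DESeq2 called 2 higher and 1 lower, against 8.05% and 7.69%. In 7 of the 16 every cKO library lay above every control, a pattern of 16.7% of all tested genes. In 2 every cKO library lay below every control, a pattern of 20.7%. Their log2 fold changes lay between -0.80 and 0.65 with a median of 0.24, against -3.81 for the 8 tested intercalated members and -0.04 for all tested genes. Summed over the 16, the level was 2275 to 2504 CPM in controls and 2504 to 2583 CPM in cKO. The subunit that fell was Atp6v1g1, the common form of the stalk subunit G, with 2495, 2202 and 2119 counts across the controls and 1451, 1337 and 961 across the cKO libraries (-0.80, SE 0.179, edgeR adjusted p = 0.0481). That call was held only without cKO replicate 3 among the tests that left out 1 library (highest edgeR adjusted p 0.174). Without cKO replicate 3, Atp6v1g1 and Atp6v1h fell, and Atp6v0a1, Atp6v0a2, Atp6v0b and Atp6v0d1 rose, where 13.7% of all tested genes rose. The rise of Atp6v0d1, the common form of subunit d, was 0.51 (SE 0.157, edgeR adjusted p = 0.0279). The accessory subunit gene Atp6ap1 was not called (0.28, SE 0.0767, edgeR adjusted p = 0.083). Thus of the pair of G subunits both the restricted and the common gene were lower in cKO, while of the pair of d subunits the common gene was higher in every cKO library.

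**Figure D2:**
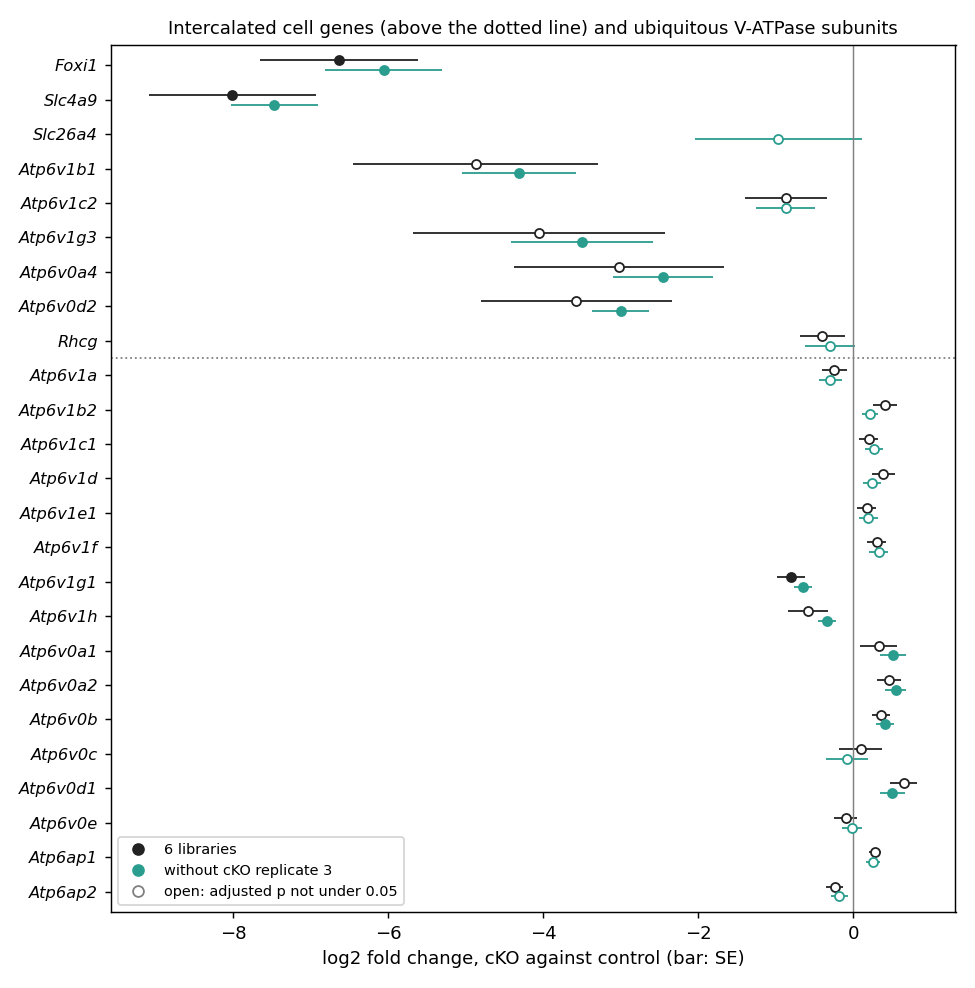
Log2 fold change of cKO against control (horizontal axis, bars are SE) for 9 intercalated cell genes above the dotted line and 16 ubiquitous V-ATPase subunits below it, with 6 libraries in black and without cKO replicate 3 in green. Filled points are called at an adjusted p under 0.05. Slc4a1, at 0 in all cKO libraries, is not drawn, and Slc26a4 was tested only without cKO replicate 3. The ubiquitous subunits lie between -0.80 and 0.65.

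A ratio of a restricted isoform to its common partner within a library does not depend on library scaling. It was taken for 5 pairs from FPKM. B1 (Atp6v1b1) made up 6.55%, 8.9% and 7.69% of the summed FPKM of Atp6v1b1 and Atp6v1b2 in control replicates 1, 2 and 3, and 0.698%, 0% and 0% in cKO. Subunit d2 (Atp6v0d2) made up 22.5%, 26.2% and 16.3% of its sum with Atp6v0d1 in controls and 1.67%, 3.09% and 0% in cKO. Subunit a4 (Atp6v0a4) made up 21.7%, 24.7% and 14.7% of its sum with Atp6v0a1 in controls and 5.0%, 1.44% and 0% in cKO. These isoforms were thus minor forms of their subunits in the sorted controls and smaller ones in cKO. Subunit G3 (Atp6v1g3) made up 1.14% to 1.55% of its sum with Atp6v1g1 in controls and at most 0.388% in cKO. Subunit C2 (Atp6v1c2) made up 4.92% to 5.16% of its sum with Atp6v1c1 in controls and 1.9% to 2.74% in cKO. In all 5 pairs the groups did not overlap. Each restricted gene alone already lay below every control in every cKO library, so the ratios are no independent result. The difference in mean log2 ratio of FPKM + 0.1, cKO minus control, was -5.51 for B1, -4.59 for d2, -3.20 for a4, -3.16 for G3 and -1.04 for C2. Where cKO libraries are at 0 these values depend on the pseudocount, and with FPKM + 1 they were -3.11, -2.98, -1.49, -0.92 and -0.75 in the same order. Without cKO replicate 3, and with FPKM + 0.1, they were -4.85, -3.39, -2.76, -2.92 and -1.12. The exact two-sided permutation p was 0.1 for each pair, the smallest that 3 against 3 libraries can give, and 0.1 after adjustment over the 5 pairs.

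**Figure D3:**
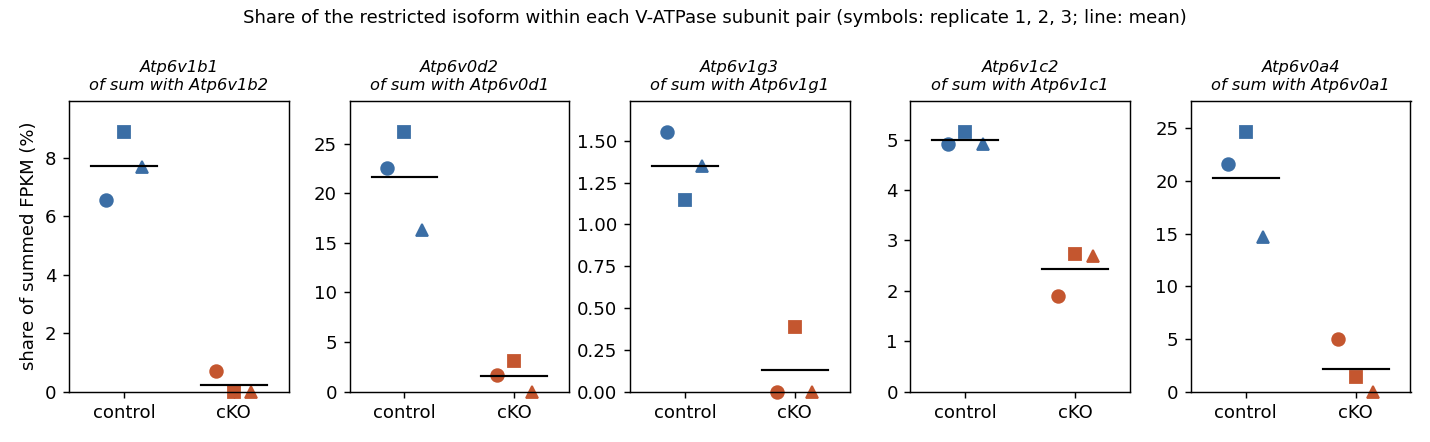
Share of the restricted isoform in the summed FPKM of each V-ATPase subunit pair (vertical axis in percent, linear from 0, with its own range per pair) in the 3 control and 3 cKO libraries. Symbols mark replicates and lines the group means. The share of Atp6v0d2 lies between 16.3% and 26.2% in controls and at or below 3.09% in cKO.

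Other V-ATPase isoforms with restricted expression did not all move one way. Of 3 tested, Atp6v0e2, a form of the small membrane subunit e, rose from 18.5 ± 4.37 to 55.2 ± 16.8 CPM (by 1.58 on the log2 scale, SE 0.318, edgeR adjusted p = 0.0361), a call lost without any 1 library except cKO replicate 3 (highest edgeR adjusted p 0.149). Tcirg1, which encodes the a3 subunit of osteoclasts, gave 212, 288 and 337 counts across the controls, against 116, 102 and 33 across the cKO libraries, and Atp6v1g2, the neuronal form of subunit G, gave 90, 75 and 63 counts across the controls, against 20, 9 and 31 across the cKO libraries. Neither was called with 6 libraries. Both fell without cKO replicate 3 (edgeR adjusted p = 0.0025 and 0.0051). The deposited annotation places 6 of the 10 members in the pathway term collecting duct acid secretion, which holds 26 genes of the table. Of 24 tested, 1 rose and 1 fell with 6 libraries, where 3.52% of all tested genes rose and 3.59% fell. Without cKO replicate 3, 4 of 25 rose and 8 fell, where 13.7% of all tested genes rose and 14.9% fell, and 4 of those 8 were members.

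In the list of 20 other genes of intercalated cells, edgeR calls were few with 6 libraries and more without cKO replicate 3. Of 14 tested, 1 fell and none rose in edgeR, where 3.59% of all tested genes fell and 3.52% rose. The 14 had a median log2 fold change of -1.22. At an unadjusted p under 0.05, 8 of them were lower and 1 higher, against 11.1% and 11.9% of all tested genes. Over all 20 listed genes DESeq2 called 8 lower and 0 higher, against 7.69% and 8.05% of the genes to which it gave an adjusted p. Without cKO replicate 3, 9 of 16 fell and 1 rose, where 14.9% of all tested genes fell and 13.7% rose. Among those that fell, P2ry14, Rhbg and Insrr reached the low-count filter in no cKO library. Dmrt2 reached it in 1, cKO replicate 3, which this fit leaves out. These genes were tested through their control libraries only, so a lower level in cKO was partly set by the filter. The gene that fell with 6 libraries was Dmrt2, a transcription factor gene of intercalated cells, with 194, 306 and 171 counts across the controls and 2, 0 and 10 across the cKO libraries (-5.71, SE 1.16, edgeR adjusted p = 0.0377). Its groups were far apart, but the call was lost without any 1 library except cKO replicate 3 (highest edgeR adjusted p 0.17). P2ry14, a receptor for UDP-sugars on intercalated cells, gave 63, 116 and 105 counts across the controls, against 0, 5 and 0 across the cKO libraries (edgeR adjusted p = 0.0712). Rhbg, the basolateral ammonia channel, gave 45, 71 and 48 counts across the controls, against 3, 4 and 0 across the cKO libraries (edgeR adjusted p = 0.0865). Adgrf5, an adhesion receptor, gave 61, 84 and 75 counts across the controls, against 16, 11 and 15 across the cKO libraries (edgeR adjusted p = 0.097). Each of these 3 genes fell without cKO replicate 3 (edgeR adjusted p = 0.00349 for Adgrf5, the largest of the 3). Unlike the apical channel gene Rhcg, Rhbg was below every control in every cKO library.

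The remaining genes of this list named here were chosen after their values were seen. Tfcp2l1, a transcription factor of collecting duct cells that acts with FOXI1, gave 1975, 2267 and 1802 counts across the controls, against 1009, 862 and 172 across the cKO libraries. Tfcp2l1 fell without cKO replicate 3 by 1.04 on the log2 scale (SE 0.127, edgeR adjusted p = 5.4e-05) and was not called with 6 libraries (edgeR adjusted p = 0.181). Insrr, a receptor that senses alkali, had 7, 80 and 56 counts in controls and none in cKO, so it was at least 45.7-fold higher in controls when cKO is set at 3 counts in all. Tmem213, Hepacam2 and Car12 also fell without cKO replicate 3, and Ncoa7 rose (0.66, SE 0.233, edgeR adjusted p = 0.04995). Car2, the cytosolic carbonic anhydrase found in both duct cell types, had 2927 to 3011 counts in controls and 2602 to 3105 in cKO and was not called (-0.01, SE 0.101, edgeR adjusted p = 0.979). Kit, a receptor gene with reads in all libraries, overlapped between groups (edgeR adjusted p = 0.188).

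**Figure D4:**
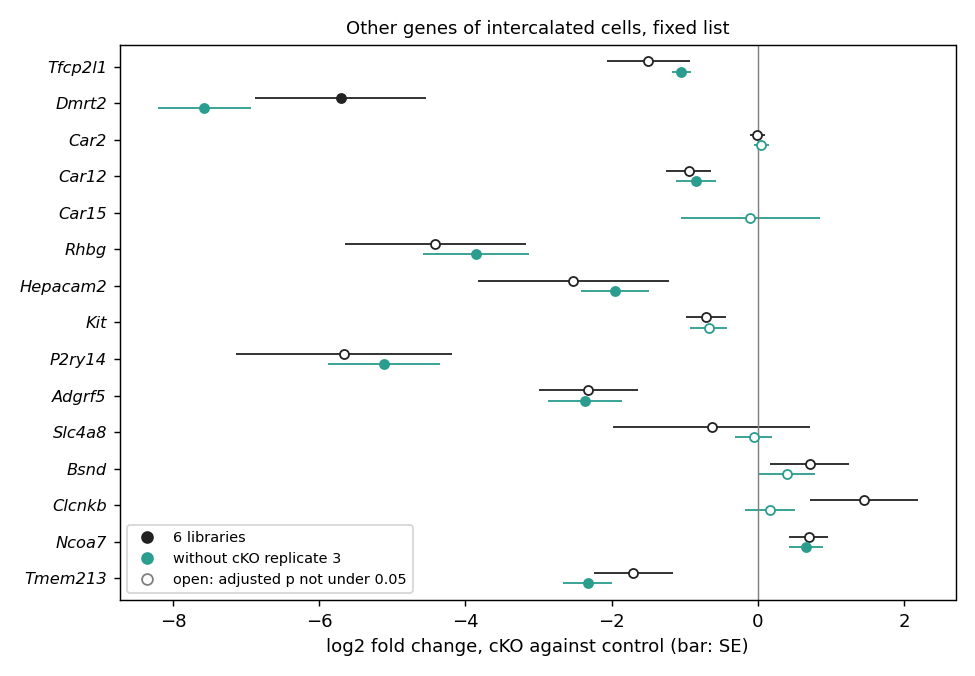
Log2 fold change of cKO against control (horizontal axis, bars are SE) for the other intercalated cell genes that passed the filter in at least 1 of the 2 fits and had reads in cKO, with 6 libraries in black and without cKO replicate 3 in green. Filled points are called at an adjusted p under 0.05. Dmrt2 is the only gene filled in black, at -5.71, and Car2 lies at -0.01.

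Relatives of the exchanger members were listed for comparison. Of 12 tested SLC4 and SLC26 genes, 1 rose and none fell in edgeR, with a median log2 fold change of -0.13. Of all tested genes 3.52% rose and 3.59% fell. At an unadjusted p under 0.05, 1 was higher and 1 lower, against 11.9% and 11.1% of all tested genes. Of the 15 listed, DESeq2 called 1 higher and 0 lower, against 8.05% and 7.69% of the genes to which it gave an adjusted p. Slc4a11, which encodes a proton-coupled transporter of corneal endothelium, gave 25, 29 and 39 counts across the controls, against 346, 370 and 130 across the cKO libraries (3.24, SE 0.529, edgeR adjusted p = 0.0193, and 0.102 at the highest when 1 library was left out). Slc4a2, the widely expressed exchanger AE2, gave 371, 650 and 555 counts across the controls, against 178, 293 and 346 across the cKO libraries. Slc4a2 was not called with 6 libraries (-0.89, SE 0.318, edgeR adjusted p = 0.156) and fell without cKO replicate 3 (-1.09, SE 0.26, edgeR adjusted p = 0.00737). Slc4a5 (edgeR adjusted p = 0.238) and Slc26a9 (edgeR adjusted p = 0.398) were not called. In both, cKO replicate 3 held the most reads, 160 and 325 counts.

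The sequence before the gene start was looked at because most of these genes were low in the same libraries and FOXI1 is a DNA-binding factor. RefSeq promoters of the build GRCm38.p6 matched 7 of the 10 members. In the 250 bases before the start, the forkhead core letters TGTTTAC or TATTTAC were searched on both strands. One of the 7 members, Atp6v1b1, held a match, TGTTTAC on the plus strand of the gene, beginning 98 bases before the start. Of all 32851 promoters in the table, 5.76% held a match to either (3.17% TGTTTAC, 2.73% TATTTAC). The regulator Foxi1, the pump gene Atp6v1b1 and the uncalled Rhcg are shown 5′ to 3′, with the match in capitals, to let the 3 kinds of member be compared.
Foxi1 (chr11:34208090-34208339, minus strand): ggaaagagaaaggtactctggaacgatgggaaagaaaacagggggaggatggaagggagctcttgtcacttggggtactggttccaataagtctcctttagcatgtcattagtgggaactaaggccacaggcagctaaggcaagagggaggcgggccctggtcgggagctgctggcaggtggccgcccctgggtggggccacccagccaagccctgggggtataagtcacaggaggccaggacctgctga
Atp6v1b1 (chr6:83742767-83743016, plus strand): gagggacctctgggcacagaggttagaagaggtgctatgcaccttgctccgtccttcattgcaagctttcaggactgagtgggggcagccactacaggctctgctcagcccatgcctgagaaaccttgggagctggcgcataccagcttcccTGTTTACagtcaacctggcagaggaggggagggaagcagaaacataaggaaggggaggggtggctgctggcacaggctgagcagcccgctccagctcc
Rhcg (chr7:79617658-79617907, minus strand): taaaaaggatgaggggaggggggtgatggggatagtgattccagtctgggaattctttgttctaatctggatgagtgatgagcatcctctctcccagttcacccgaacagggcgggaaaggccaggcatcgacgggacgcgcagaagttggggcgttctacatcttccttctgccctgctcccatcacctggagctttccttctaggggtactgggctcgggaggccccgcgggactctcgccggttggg
The windows of Foxi1 and Rhcg, like those of Slc26a4, Atp6v0a4, Atp6v1c2 and Atp6v1g3, do not hold these letters. Base composition differed among them, from 44.4% G and C in the window of Atp6v1g3 to 64% in that of Atp6v1c2.

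The genes whose pattern over the 6 libraries was most like that of Foxi1 were found by Pearson's r of log2 CPM with a prior count of 2, among the 11810 tested genes whose log2 CPM averaged at least 1. They were Efemp2 (r = 0.998), Man2c1 (0.998), Nr2c1 (0.997), Dkk3 (0.996) and Arrdc1 (0.994). The 6 points share the genotype within each group. These genes had log2 fold changes from -1.48 for Man2c1 to -0.67 for Arrdc1. Among the other tested members, r with Foxi1 was 0.984 for Slc4a9, 0.973 for Atp6v1g3, 0.949 for Atp6v0d2, 0.942 for Atp6v1c2, 0.901 for Atp6v0a4, 0.881 for Atp6v1b1 and 0.574 for Rhcg.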

How the data were processed

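Counts and FPKM were deposited by the authors, each as a table with 1 column per library for 17189 genes. Per the submitters' processing notes the tools were HISAT2, HTSeq, Cufflinks and DESeq and the build was GRCm39; versions, roles and the counting's strand setting were not given in the sources used here. Per the labels' protocols the library kit preserved strand. The deposited FPKM values are the counts rescaled with a gene length and a library factor (largest relative deviation 2.21e-07), so they are no independent measurement. Counts were fitted in edgeR 4.0.16 (R 4.3.3) with filterByExpr (minimum count 10), TMM scaling and the robust quasi-likelihood F-test, with the group as the only term. Benjamini-Hochberg adjustment ran over all 13047 tested genes, and genes were called at an adjusted p under 0.05. SE is the size of the log2 fold change divided by the square root of F. Alternatives used DESeq2 1.42.0 and limma 3.58.1. The floor for a gene at 0 is 3 counts, 0.285 to 0.307 CPM in a single library, and covers counting error only. Chi-square tests between replicates gave 9.9 to 71.7 per degree of freedom, above sampling noise, and p-values reflect library-to-library spread, which may be technical. Promoters came from RefSeq (GRCm38.p6), another build than that of the files, so they were matched by Entrez Gene identifier.

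Like the members, the gene lists were chosen with earlier results of these data known. Named are all 10 members with their 5 common partner subunits and Ash2l, and from each other list the 4 genes with the smallest p and every called gene, and for cell type markers the 2 with the smallest p where a list is given beside a result. Ddx3y was named after its values were seen. So were Avpr2, Elf5 and Scnn1b, the 3 principal cell genes whose groups overlapped. A marker gene is not reported here and was left out of its list.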

Additional observations from a re-analysis of the deposited data

How the results depend on the processing

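The direction of each of the 8 tested members was negative in every alternative. RLE size factors and the omission of the low-count filter left the number of fallen members at 2. It was 4 with DESeq2, 6 with limma on log2(FPKM + 1), 4 on log2(FPKM + 0.1) and 5 with limma-voom and library weights, where Foxi1 was not among the 5 (-6.39, adjusted p = 0.0607), and it ranged from 0 to 6 when 1 library was left out. Without control replicate 1, 2 or 3 it was 0, and without cKO replicate 3 it was 6. No member rose in any alternative.

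The labels do not say whether the replicate numbers pair the libraries. Deviations of same-numbered libraries from their group means correlated at -0.022, 0.025 and -0.00145. With 3 libraries per group such values cannot settle whether the libraries are paired. With the replicate number as a block, 0 members, 0 ubiquitous subunits and 0 other intercalated cell genes fell, 12 genes rose and 11 fell in all, and the members' median was -5.02 against -3.81. That median was -2.01 on log2(FPKM + 1), which understates the change of low genes. With 1 library left out it ranged from -4.42 to -3.25, both over 10 tested members and not the 8 of the 6-library fit, and from -3.77 to -2.76 with members at 0 in every cKO library put at the floor.

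Of ubiquitous subunits, 2 rose with DESeq2, 1 with limma on log2(FPKM + 1), 1 on log2(FPKM + 0.1) and 6 with library weights; with 1 library left out, 0 to 4 rose and 0 to 2 fell. Of the other intercalated cell genes, 8 fell with DESeq2, 5 on log2(FPKM + 1), 3 on log2(FPKM + 0.1) and 7 with library weights, and 0 to 9 fell and 0 to 1 rose with 1 library left out. Over all genes 1111 rose and 1061 fell with DESeq2, 696 and 709 on log2(FPKM + 1), and 1607 and 1756 with library weights; with 1 library left out 62 to 1865 rose and 59 to 2032 fell. The cause of these shifts was not tested. The isoform ratios kept their direction throughout. With a pseudocount of 1 FPKM the difference was -3.11 for B1, -2.98 for d2, -1.49 for a4, -0.92 for G3 and -0.75 for C2. Low counts limit Slc4a1 and Slc26a4.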
